A study of Homo sapiens with 22 samples.

Results

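The transcripts that changed in LN308 cells after 6 h of tunicamycin were taken from 3 RNA-Seq libraries of treated cells, set against 3 RNA-Seq libraries of untreated cells. These 6 libraries were picked by their titles out of 22 in the study. LN308 is an established astrocytoma-derived glial cell line that lacks p53, per the labels. The treated cells received tunicamycin at 2.5 µg/ml in DMSO for 6 h. The other cells are labelled untreated at 0 h, while a DMSO control is mentioned in the protocol. A 6 h vehicle control was not used here, so the drug and 6 h of further culture with solvent cannot be told apart. Nothing in the labels says that replicates were separate cultures, so each p-value rests on the spread among libraries, which may be technical. That spread came from a fit of all 11 RNA-Seq libraries of the study, not from these 6 alone.

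Tunicamycin blocks DPAGT1, the enzyme that starts the dolichol-linked sugar precursor of N-glycans, so that glycoproteins enter the endoplasmic reticulum (ER) without their sugar trees and fold poorly. The sensors IRE1, PERK and ATF6 then start the unfolded protein response. IRE1 splices the mRNA of XBP1, ATF6 is cut in the Golgi into a transcription factor, and PERK phosphorylates eIF2, which slows translation at large while favouring the mRNA of ATF4. Together these factors are known to turn on genes for chaperones, protein export, degradation of misfolded proteins and amino acid supply. Astrocytoma cells are known to secrete matrix proteins and growth factors, which fold in the ER.

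The tunicamycin libraries held 166586145, 114935867 and 117459726 gene counts, and the untreated libraries 138227034, 122185746 and 101371822. Untreated replicate 1 stood apart. It counted reads for 53489 genes, where every other RNA-Seq library of the study had 38264 to 40331, and 69.3% of 375 olfactory receptor genes, which glial cells should not transcribe, had at least 10 counts in it, against 2.93 to 5.60% elsewhere. Replicate 1 of both groups was also low in CCN1, a secreted matrix protein, which had 110.3, 739.8 and 1029 CPM after tunicamycin, against 19.2, 622 and 1350.3 CPM in untreated cells. EGFR, the epidermal growth factor receptor, showed the same order, with 115, 450.0 and 530.2 CPM after tunicamycin, against 76.2, 351 and 461 CPM in untreated cells. Neither gene was called (CCN1 adjusted p = 0.977, EGFR adjusted p = 0.806). The scaling factor of untreated replicate 1 was 1.46 by the trimmed mean of M-values (TMM), so its levels are divided by more than its total. Levels here are TMM-scaled CPM (counts per 1e6 counts), fold changes are log2 of tunicamycin over untreated, and a gene is called when its adjusted p from edgeR's quasi-likelihood test is under 0.05.

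Of 41130 genes tested, 504 (1.23%) were called higher after tunicamycin and 113 (0.275%) lower, 1.5% in either direction. Among them 312 of the higher and 86 of the lower are protein coding. The called changes were large, with a median log2 fold change of 1.86 for the higher genes and -1.61 for the lower genes. At least a 4-fold difference was seen in 209 of the higher and 32 of the lower genes. In all 617 the CPM of the 2 groups did not overlap. This also held for 10.5% of all genes tested in the upward and 10.6% in the downward direction. The median of all genes was -0.27, and -0.58 when scaled by library size alone. It was -0.01 without untreated replicate 1, and -0.32 to -0.26 without any other of the 6 libraries. With the replicate number as a block, or with the 6 libraries alone, it was -0.04. Without untreated replicate 1, 464 of the 504 and 100 of the 113 were still called, and with the replicate number as a block, 501 and 107. The fit without untreated replicate 1 tested 31144 genes, fewer than the 41130, and called 2.36% of them higher and 0.729% lower. The filter let a gene in on 1 library alone, so the 41130 include genes that passed only through untreated replicate 1. The shares and the median over all genes count them. Whichever of the 6 libraries was left out, 156 of the higher but 3 of the lower genes kept their call. Refitting without 1 library called 270, 252 and 182 higher and 17, 20 and 5 lower genes without tunicamycin replicates 1, 2 and 3, and 736, 176 and 272 higher and 227, 19 and 104 lower genes without untreated replicates 1, 2 and 3. The fit with the block called more genes in all, 1485 higher (5.06% of 29330 tested) and 821 lower (2.8%). The block without untreated replicate 1 called 3949 higher (13.4% of 29415) and 3468 lower (11.8%).

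BiP is the chief Hsp70 chaperone of the ER. Its gene HSPA5 (chromosome 9, 125234853 to 125241343 on GRCh38.p14) had 6892, 12116 and 14698 CPM after tunicamycin, against 506, 1008 and 1141 CPM in untreated cells. Replicate 1 was the lowest library in each group, and the groups were far apart. Counts of HSPA5 alone made up 0.628, 1.17 and 1.36% of all gene counts in the tunicamycin libraries, against 0.0736, 0.102 and 0.113% in the untreated ones (log2 fold change 3.67 ± 0.52 (SE), adjusted p = 0.00782). Among 26 genes for BiP and ER co-chaperones 15 were called higher and none lower (18 higher and 1 lower with the block), with a median log2 fold change of 1.51. DNAJB9, a J-protein that hands clients to BiP and restrains IRE1, had 389, 296 and 386 CPM after tunicamycin, against 21.1, 17.6 and 16.8 CPM in untreated cells (4.27 ± 0.24 (SE), adjusted p = 7.54e-05). HYOU1, which recharges BiP with ATP, had 1731, 1488 and 1824 CPM after tunicamycin, against 216, 318 and 330.0 CPM in untreated cells (2.54 ± 0.26 (SE), adjusted p = 0.0014). Other J-proteins rose with them, DNAJC3 to 932, 659.7 and 850.1 CPM after tunicamycin, against 113, 141 and 158 CPM in untreated cells (2.57 ± 0.24 (SE), adjusted p = 0.00106), and DNAJB11 to 302, 212 and 253 CPM, against 41.6, 58.8 and 61.4 CPM (2.25 ± 0.24 (SE), adjusted p = 0.00161). SDF2L1 (3.00), the translocon-associated membrane protein SERP1 (2.36), CRELD2 (2.17), the secreted factor MANF (2.11), the prolyl isomerases FKBP11 (1.94) and FKBP14 (1.91), and HSP90B1 (1.63), the ER form of Hsp90, rose as well. FICD, which attaches AMP to BiP and removes it, is outside the list and had 85, 61.8 and 72.3 CPM after tunicamycin, against 6.27, 9.72 and 8.93 CPM in untreated cells (3.14 ± 0.25 (SE), adjusted p = 0.000854). FKBP7 (-1.35, adjusted p = 0.236) and CNPY4 (-0.71, adjusted p = 0.187) had negative values that did not pass, and CNPY4 was called lower with the block (-0.76, adjusted p = 0.0155).

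**Figure D1:**
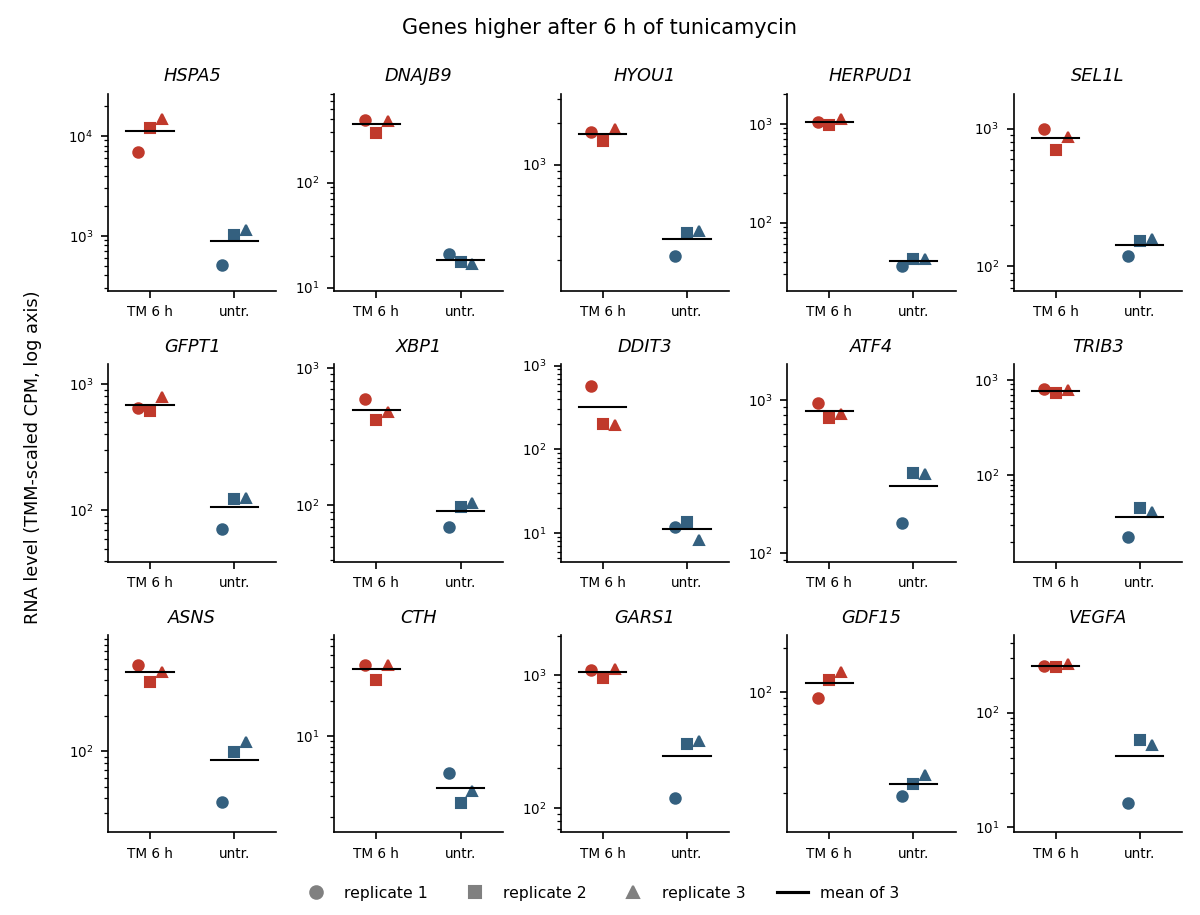
RNA levels in TMM-scaled CPM (log axis) of 15 genes called higher, in 3 tunicamycin 6 h libraries (red, left) and 3 untreated libraries (blue, right). Each point is 1 library, its shape gives the replicate number and the line is the mean. In each of the 15 genes the 3 treated libraries lie above the 3 untreated ones, and replicate 1 is the lowest untreated library for all of them but DNAJB9, DDIT3 and CTH.

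Oxidative folding forms the disulfide bonds of secreted proteins. Of 24 protein disulfide isomerases and ERO1 oxidases 5 were called higher and none lower (9 higher with the block), with a median of 0.49. The oxidase gene ERO1B had 142, 101 and 134 CPM after tunicamycin, against 25.9, 19 and 24.7 CPM in untreated cells (2.44 ± 0.23 (SE), adjusted p = 0.00106). PDIA4 had 2646, 1754 and 2244 CPM after tunicamycin, against 503, 519 and 559 CPM in untreated cells (2.07 ± 0.24 (SE), adjusted p = 0.00237). TXNDC11 (2.04, adjusted p = 0.00246), PDIA5 (1.55, adjusted p = 0.0167) and PDIA3 (1.19, adjusted p = 0.0252), the isomerase that works with calnexin, were called too. P4HB, the founding isomerase, had 1599, 1809 and 2054 CPM after tunicamycin, against 604, 1217 and 1323 CPM in untreated cells (0.80, adjusted p = 0.259, and 0.0371 with the block). In the lectin chaperone cycle, which reads the glucose left on N-glycans, 1 of 14 genes was called higher (5 with the block, median 0.43). That was LMAN1, a cargo receptor for glycoproteins (1.20 ± 0.26 (SE), adjusted p = 0.0491). The lectin chaperone gene CANX had 3066, 1760.2 and 2108 CPM after tunicamycin, against 1172, 1233 and 1302 CPM in untreated cells (0.90, adjusted p = 0.166, and 0.0424 with the block). Calls that were lost on leaving out a library were PDIA5 without tunicamycin replicate 2 or 3 or untreated replicate 2 or 3 (adjusted p up to 0.0989), PDIA3 without tunicamycin replicate 1 or 3 or untreated replicate 2 or 3 (adjusted p up to 0.102), and LMAN1 without tunicamycin replicate 1, 2 or 3 or untreated replicate 2 or 3 (adjusted p up to 0.158).

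Genes for ER-associated degradation, which pulls misfolded proteins out of the ER for the proteasome, were called higher in 11 of 31 cases and lower in none, with a median of 0.61. HERPUD1, a scaffold of the retrotranslocation complex, had 1039, 962 and 1121 CPM after tunicamycin, against 36.7, 42.4 and 42.6 CPM in untreated cells (4.68 ± 0.25 (SE), adjusted p = 7.54e-05). These values sat within narrow bands in both groups. SEL1L, the adaptor of the HRD1 ligase, had 995, 703 and 873 CPM after tunicamycin, against 119.6, 152 and 159 CPM in untreated cells (2.58 ± 0.24 (SE), adjusted p = 0.00106). SYVN1 (2.59), which encodes HRD1 itself, the derlin genes DERL3 (2.05) and DERL2 (1.95), the selenoprotein genes SELENOK (2.16) and SELENOS (1.76), the mannosidase-like genes EDEM1 (1.65) and EDEM3 (1.07), the lectin gene ERLEC1 (1.48) and the conjugating enzyme gene UBE2J1 (1.55) rose with it. The count of 11 was 6 without untreated replicate 2 or tunicamycin replicate 3. The 31 subunit genes of the proteasome itself gave no call in either direction, although all 31 had a positive fold change (median 0.42, range 0.05 to 0.83). That median was 0.21 without replicate 1 of either group and 0.01 with the block without untreated replicate 1.

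ATF6 and XBP1 are known to act through short DNA motifs, whose part in these changes was not tested. RefSeq promoters on GRCh38.p14, from 250 bases before to 50 after each start, were searched on both strands for the ER stress response element ERSE (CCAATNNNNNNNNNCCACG), its second form ERSE-II (ATTGGNCCACG) and the unfolded protein response element UPRE (TGACGTGG). ERSE was present in 27 of 35116 promoters (0.0769%), ERSE-II in 19 (0.0541%) and UPRE in 256 (0.729%). A gene can have several starts, and the promoter printed for it was picked among those that hold a motif. Sequences are printed 5′ to 3′ along the gene, with the motif in capitals, first the 250 bases before the start of HSPA5 and of HERPUD1, whose first capital run is a CARE, described further on, and whose second is the ERSE-II, and then short windows that show the variety among risen genes.
HSPA5, chr9:125241344-125241593, minus strand: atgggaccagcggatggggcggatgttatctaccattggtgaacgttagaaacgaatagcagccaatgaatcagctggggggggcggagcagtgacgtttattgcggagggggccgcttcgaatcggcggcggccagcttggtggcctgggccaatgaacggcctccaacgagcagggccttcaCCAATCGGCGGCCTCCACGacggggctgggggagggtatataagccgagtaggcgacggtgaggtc
HERPUD1, chr16:56931892-56932141, plus strand: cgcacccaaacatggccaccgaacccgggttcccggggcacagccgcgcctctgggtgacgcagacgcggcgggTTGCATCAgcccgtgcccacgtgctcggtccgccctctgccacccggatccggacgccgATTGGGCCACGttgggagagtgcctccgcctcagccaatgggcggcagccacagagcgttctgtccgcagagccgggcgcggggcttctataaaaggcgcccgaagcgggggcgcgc
HSP90B1, chr12:103930204-103930246, plus strand: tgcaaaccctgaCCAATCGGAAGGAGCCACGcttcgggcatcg
XBP1, chr22:28800591-28800633, minus strand: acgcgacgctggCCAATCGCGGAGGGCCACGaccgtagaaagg
FICD, chr12:108515111-108515153, plus strand: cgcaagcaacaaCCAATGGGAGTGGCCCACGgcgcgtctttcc
CRELD2, chr22:49918542-49918584, plus strand: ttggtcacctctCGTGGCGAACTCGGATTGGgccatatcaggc
SDF2L1, chr22:21642102-21642136, plus strand: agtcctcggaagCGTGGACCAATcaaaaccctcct
HYOU1, chr11:119057368-119057402, minus strand: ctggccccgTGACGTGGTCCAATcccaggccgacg
The motifs of CRELD2 and SDF2L1 lie on the opposite strand. In HYOU1 an ERSE-II on the opposite strand and a UPRE overlap, and the capitals cover both. The ERSE began 66 bases before the start of HSPA5 and 52 bases before that of XBP1, and the ERSE-II 117 bases before that of HERPUD1.

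Among 14555 tested coding genes with a promoter in the reference, 1.82% were called higher and 0.44% lower. An ERSE was present at 21 of these genes, of which 8 (38.1%) were called higher: HSPA5, HSP90B1, CRELD2, XBP1, FICD, ERO1B (2.44), SERP1 and TRIM5 (1.64), the last an antiviral restriction factor. A further 6 of the 21 had non-overlapping groups with treated cells higher but were not called, as CALR (1.19, adjusted p = 0.0913) and PDIA6 (1.00, adjusted p = 0.0587) show. FRG2, FRG2B and FRG2C, near-identical copies whose reads are hard to assign, also held the motif, were at or near 0 CPM in all 6 libraries and were not called. ERSE-II was present at 15 genes, with HERPUD1, HYOU1, SDF2L1 and RAD9A (1.62), a DNA damage checkpoint gene, called higher (26.7%). UPRE was present at 162 genes, and 11 (6.79%) were called higher, among them the Golgi syntaxin gene STX5, DNAJC10, SSR3 and UBE2J1. The median log2 fold change was 0.90 with an ERSE, 0.23 with an ERSE-II and 0.18 with a UPRE, against -0.09 for all 14555. None of the 64 lower genes with a promoter held any of the 3 motifs. A match describes these letters and is not a measured binding site.

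**Figure D2:**
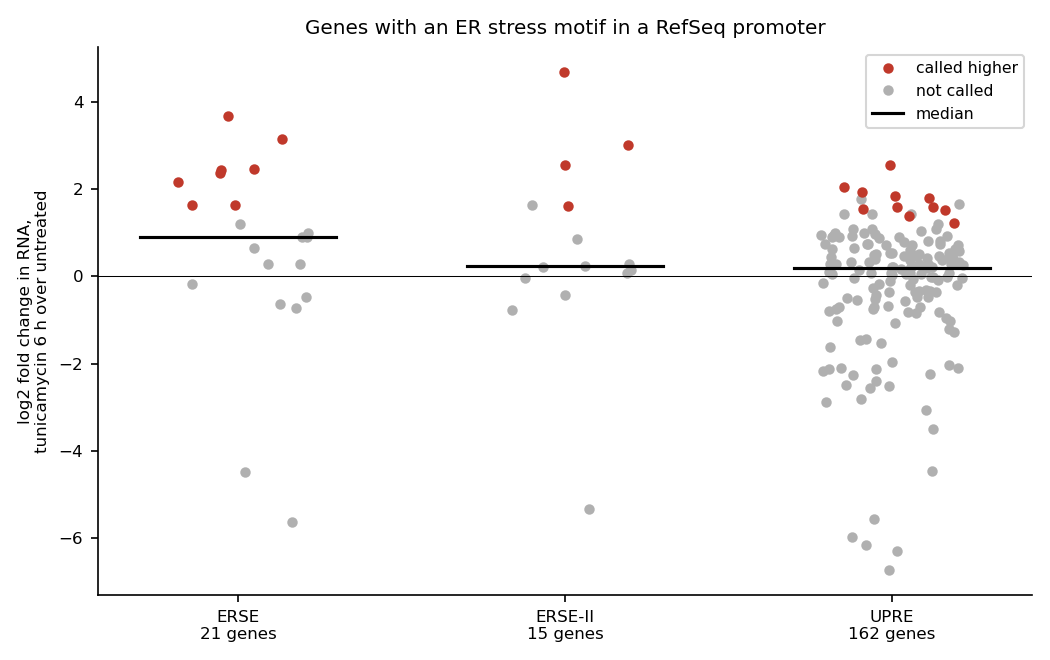
Log2 fold change in RNA (tunicamycin 6 h over untreated) of tested coding genes whose RefSeq promoter holds an ERSE (21 genes), ERSE-II (15 genes) or UPRE (162 genes). Each point is a gene, red where called higher, and bars are medians, which stand at 0.90, 0.23 and 0.18.

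Secretory proteins enter the ER through the translocon and leave it in coated vesicles. In signal recognition, the translocon and membrane insertion 5 of 40 genes were called higher (17 with the block), none lower, and 38 of 40 fold changes were positive. SEC11C, a catalytic subunit of signal peptidase, had 155, 85.5 and 97.9 CPM after tunicamycin, against 18.9, 25.9 and 27.6 CPM in untreated cells (2.22 ± 0.34 (SE), adjusted p = 0.0108). SRP19 (1.79) of the signal recognition particle, SRPRB (1.18) of that particle's receptor, HSPA13 (1.84) and SSR3 (1.52) of the translocon-associated complex rose. The channel gene SEC61A1 had 788, 850.1 and 1013 CPM after tunicamycin, against 224, 441 and 475 CPM in untreated cells (1.22, adjusted p = 0.0831, and 0.0129 with the block). Among 58 genes of COPII, COPI and ER-Golgi traffic 14 were called higher (31 with the block) and none lower, with a median of 0.78. COPII coats bud from the ER, and their inner coat gene SEC23B had 529.5, 303 and 384 CPM after tunicamycin, against 79, 106 and 96.5 CPM in untreated cells (2.11 ± 0.29 (SE), adjusted p = 0.00729). SEC24D (2.48), which selects cargo, the outer coat gene SEC31A (1.40) and PREB (1.71, adjusted p = 0.00713), which loads the coat's GTPase, rose too. So did the SNARE genes STX5 (1.58, adjusted p = 0.00656), BET1 (2.12), GOSR2 (1.39) and SEC22B (1.37), and the tether gene USO1 (1.48). For the backward COPI route ARFGAP3 (1.70, adjusted p = 0.00831) and COPG1 (1.17) were called. Without untreated replicate 2 or tunicamycin replicate 3 the count of 14 was 5, and that of 5 in the translocon list was 2. Calls lost on leaving out a library were HSPA13 without tunicamycin replicate 3 or untreated replicate 2 (adjusted p up to 0.0722), SSR3 without tunicamycin replicate 1, 2 or 3 or untreated replicate 2 (adjusted p up to 0.102), and SRPRB without tunicamycin replicate 1, 2 or 3 or untreated replicate 2 or 3 (adjusted p up to 0.141).

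N-glycan synthesis is the pathway that the drug blocks. Its target gene DPAGT1 had 42.2, 38.4 and 41.4 CPM after tunicamycin, against 18.6, 30.2 and 29.8 CPM in untreated cells. The groups did not overlap, but the gene was not called (0.64 ± 0.23 (SE), adjusted p = 0.212, and 0.0514 with the block). Of 40 genes for assembly of the glycan precursor and its transfer 5 were called higher (13 with the block) and none lower (1 with the block, ALG6 at -0.80). GMPPB (2.35 ± 0.32 (SE), adjusted p = 0.00604) and GMPPA (1.57) make and control the supply of GDP-mannose, and ALG2 (1.77) adds mannose to the precursor. OSTC (1.44) and MAGT1 (1.43) belong to the oligosaccharyltransferase. The hexosamine pathway makes UDP-GlcNAc, the sugar that DPAGT1 uses. All 9 genes of that list had positive fold changes and 2 were called (4 with the block). GFPT1, the enzyme that commits sugar to this pathway, had 649, 607 and 793 CPM after tunicamycin, against 71, 122 and 125 CPM in untreated cells (2.69 ± 0.28 (SE), adjusted p = 0.0016). PGM3 had 318, 229.5 and 268 CPM after tunicamycin, against 43.4, 59.7 and 59.8 CPM in untreated cells (2.32 ± 0.27 (SE), adjusted p = 0.00245). Leaving out a library ended the calls of OSTC and MAGT1 without tunicamycin replicate 1 or 3 or untreated replicate 2 (adjusted p up to 0.102), and GMPPA without tunicamycin replicate 3 or untreated replicate 3 (adjusted p up to 0.0617).

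**Figure D3:**
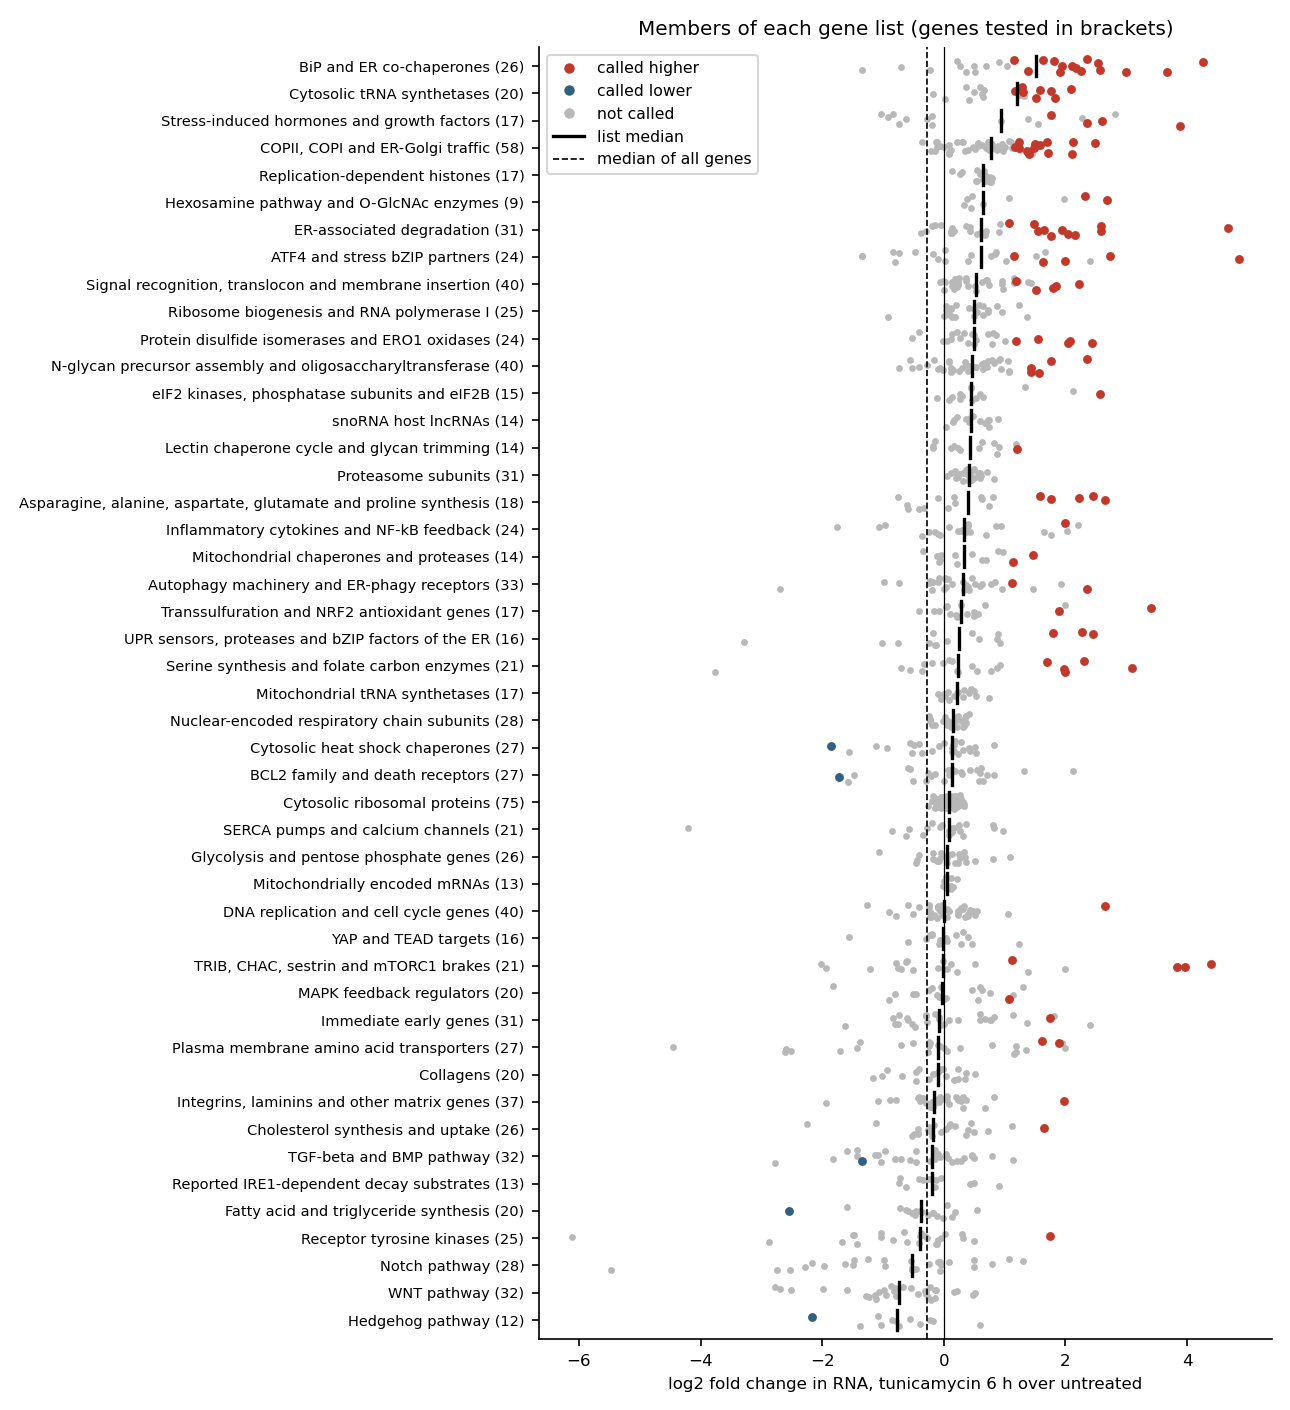
Log2 fold change in RNA (tunicamycin 6 h over untreated) of every tested member of 47 gene lists, sorted by list median (black bar). Red points are called higher, blue points lower and grey points are not called. The dashed line is the median of all genes, -0.27, which was -0.01 without untreated replicate 1. Of these 47 lists BiP and ER co-chaperones have the highest median (1.51) and the Hedgehog pathway the lowest (-0.76). The lists of cell type markers are not drawn. Among them the blood (-1.62), glial (-1.13) and endothelial and fibroblast (-0.93) medians were lower still. The neuron median was -0.76 and the epithelial and keratinocyte median -0.27.

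Among the sensors and ER-bound factors, 3 of 16 genes were called higher (6 with the block) and none lower. EIF2AK3, which encodes PERK, had 134, 101 and 118 CPM after tunicamycin, against 21.1, 25 and 27.1 CPM in untreated cells (2.27 ± 0.24 (SE), adjusted p = 0.00161). XBP1 had 591, 422 and 475 CPM after tunicamycin, against 70.2, 97.9 and 105 CPM in untreated cells (2.45 ± 0.26 (SE), adjusted p = 0.00162), and gene counts do not separate its spliced form. ERN1, which encodes IRE1, had 52, 82 and 92.2 CPM after tunicamycin, against 17.6, 21.5 and 26.4 CPM in untreated cells (1.79 ± 0.37 (SE), adjusted p = 0.0419). ATF6 had 259.6, 192 and 219 CPM after tunicamycin, against 116, 118 and 128 CPM in untreated cells and was not called (0.89, adjusted p = 0.0655, or 0.84, adjusted p = 0.0127 with the block). PPP1R15A, the phosphatase subunit that reverses eIF2 phosphorylation, had 386, 536 and 590.3 CPM after tunicamycin, against 19.5, 151 and 177 CPM in untreated cells (2.12, adjusted p = 0.161, and 0.024 with the block). Untreated replicate 1 was far below the other untreated libraries in this gene.

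Downstream of eIF2, 5 of 24 genes for ATF4 and stress bZIP partners were called higher and none lower (10 higher and 1 lower, CEBPA at -1.36, with the block). ATF4 had 950.5, 766 and 809.9 CPM after tunicamycin, against 158, 332 and 326 CPM in untreated cells (1.63 ± 0.30 (SE), adjusted p = 0.0256). DDIT3, the pro-apoptotic factor CHOP, had 574, 202 and 194 CPM after tunicamycin, against 11.8, 13.6 and 8.25 CPM in untreated cells (4.85 ± 0.52 (SE), adjusted p = 0.00161). Its treated replicate 1 was the highest library, and the other treated libraries were also far above the untreated ones. The DDIT3 log2 fold change was 4.15 without tunicamycin replicate 1. NFIL3 had 76.9, 56.9 and 62.7 CPM after tunicamycin, against 11.8, 9.69 and 7.87 CPM in untreated cells (2.74 ± 0.26 (SE), adjusted p = 0.00106). CEBPG (2.00), a partner of ATF4, and ATF2 (1.16) rose. ATF3 had 70.5, 75.4 and 70.7 CPM after tunicamycin, against 6.20, 14.8 and 20.1 CPM in untreated cells (2.40, adjusted p = 0.129, or 2.64, adjusted p = 0.0351 with the block). TRIB3, a pseudokinase that dampens ATF4 and CHOP, had 804, 718 and 780.3 CPM after tunicamycin, against 22.5, 45.9 and 41.6 CPM in untreated cells (4.39 ± 0.36 (SE), adjusted p = 0.000854). CHAC1, which breaks down glutathione, had 60.3, 60.7 and 71.3 CPM after tunicamycin, against 1.13, 6.35 and 4.81 CPM in untreated cells (3.97 ± 0.57 (SE), adjusted p = 0.00804), and SESN2, a leucine sensor that holds back mTORC1, had 212, 308 and 341 CPM after tunicamycin, against 10.9, 22.4 and 27.2 CPM in untreated cells (3.83 ± 0.53 (SE), adjusted p = 0.00693). EIF4EBP1, which blocks cap-dependent initiation, rose by less (1.12 ± 0.24 (SE), adjusted p = 0.0478). The median of this list of 21 brakes on growth signalling was -0.01, with 4 called higher and none lower. With the block EIF4EBP2 (-0.83), another initiation blocker, and RRAGD (-0.76), a GTPase of the mTORC1 pathway, were called lower, and without untreated replicate 1 the list had 6 higher and 1 lower. Calls that did not survive the loss of a library were ATF4 and EIF4EBP1 without tunicamycin replicate 1, 2 or 3 or untreated replicate 2 or 3 (adjusted p up to 0.133), CEBPG without tunicamycin replicate 1, 2 or 3 or untreated replicate 2 (adjusted p up to 0.082), ATF2 without tunicamycin replicate 1 or 3 or untreated replicate 2 or 3 (adjusted p up to 0.104), and ERN1 without tunicamycin replicate 1, 2 or 3 or untreated replicate 1, 2 or 3 (adjusted p up to 0.184).

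Secreted stress signals rose at the RNA level in 4 of 17 genes. GDF15, the hormone that lowers appetite through a hindbrain receptor, had 90.8, 120.1 and 138 CPM after tunicamycin, against 19.1, 23.1 and 26.4 CPM in untreated cells (2.35 ± 0.35 (SE), adjusted p = 0.00929). VEGFA, the growth factor of blood vessels, had 255, 249 and 262 CPM after tunicamycin, against 16.3, 57.6 and 51.9 CPM in untreated cells (2.61 ± 0.44 (SE), adjusted p = 0.0189). ADM2, a peptide of the adrenomedullin family, had 12.1, 29.7 and 32.2 CPM after tunicamycin, against 1.00, 2.07 and 1.94 CPM in untreated cells (3.88 ± 0.66 (SE), adjusted p = 0.0189), and the growth factor gene FGF2 had 186, 132 and 174 CPM after tunicamycin, against 44.6, 53.7 and 46.5 CPM in untreated cells (1.76 ± 0.23 (SE), adjusted p = 0.0047). STC2 (2.81, adjusted p = 0.156) and INHBE (2.27, adjusted p = 0.0921) had large values that did not pass. Of 24 inflammatory genes 1 was called higher (3 higher and 1 lower with the block), IL1A (2.00 ± 0.38 (SE), adjusted p = 0.0314), while IL6 had 1.61, 2.71 and 3.22 CPM after tunicamycin, against 0.189, 0.953 and 1.30 CPM in untreated cells (1.64, adjusted p = 0.271, and 0.0215 with the block). TSLP, a cytokine of barrier tissues, had 6.83, 5.62 and 5.96 CPM after tunicamycin, against 0.586, 0.339 and 0.260 CPM in untreated cells (3.94 ± 0.39 (SE), adjusted p = 0.0014). Calls lost on leaving out a library were VEGFA without tunicamycin replicate 2 or 3 (adjusted p up to 0.0713), ADM2 without tunicamycin replicate 2 or 3 or untreated replicate 2 or 3 (adjusted p up to 0.0769), and IL1A without tunicamycin replicate 1, 2 or 3 or untreated replicate 2 (adjusted p up to 0.115).

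In asparagine, alanine, aspartate, glutamate and proline synthesis 5 of 18 genes were called higher and none lower. ASNS, which makes asparagine, had 535, 389.6 and 472 CPM after tunicamycin, against 37.1, 98.3 and 119 CPM in untreated cells (2.45 ± 0.40 (SE), adjusted p = 0.0154). GOT1 had 264, 175 and 199 CPM after tunicamycin, against 21.7, 42.8 and 37.3 CPM in untreated cells (2.65 ± 0.29 (SE), adjusted p = 0.0019), GPT2 had 154, 143 and 167 CPM after tunicamycin, against 24.6, 40.9 and 34 CPM in untreated cells (2.22 ± 0.24 (SE), adjusted p = 0.00179), and PYCR1 (1.59) of proline synthesis and BCAT1 (1.77) of branched-chain amino acid use rose. In serine synthesis and folate carbon metabolism 5 of 21 rose and none fell. With the block 7 were called higher and 1 lower, the folate carrier gene SLC19A1 (-0.73). ALDH1L2, a mitochondrial folate enzyme, had 154, 158 and 175 CPM after tunicamycin, against 16.7, 20.6 and 19.5 CPM in untreated cells (3.10 ± 0.28 (SE), adjusted p = 0.00106), and the other 4 were MTHFD2 (2.31), PSAT1 (1.99), PSPH (1.98, adjusted p = 0.00847) and SHMT2 (1.69). PHGDH, the entry enzyme of serine synthesis, had 264, 302 and 329 CPM after tunicamycin, against 64.5, 201 and 209 CPM in untreated cells (0.92, adjusted p = 0.28, and 0.0494 with the block). ALDH1L1, the cytosolic counterpart of ALDH1L2, had 0.0330, 0.0451 and 0.00923 CPM after tunicamycin, against 1.16, 0.0242 and 0.0200 CPM in untreated cells and was not called. In transsulfuration and NRF2 antioxidant genes 2 of 17 were called higher (4 with the block). CTH, which makes cysteine from methionine-derived cystathionine, had 41.7, 30.7 and 41 CPM after tunicamycin, against 4.75, 2.63 and 3.34 CPM in untreated cells (3.40 ± 0.33 (SE), adjusted p = 0.00119). CBS had 9.09, 7.25 and 8.41 CPM after tunicamycin, against 3.12, 1.65 and 1.89 CPM in untreated cells (1.89 ± 0.31 (SE), adjusted p = 0.0159), a value that is uncertain because of its near-identical copy CBSL. Of 27 plasma membrane amino acid transporters SLC38A1 (1.90 ± 0.35 (SE), adjusted p = 0.025) and SLC38A2 (1.61 ± 0.25 (SE), adjusted p = 0.0111), which carry neutral amino acids, were called (7 higher with the block), and the list's median was -0.09. The cystine carrier gene SLC7A11 had 931, 783 and 759.7 CPM after tunicamycin, against 60.6, 267 and 294 CPM in untreated cells (1.99, adjusted p = 0.0722, and 0.0421 with the block). Sensitive to single libraries were the calls of ASNS without tunicamycin replicate 3 or untreated replicate 2 (adjusted p up to 0.0585), BCAT1 without untreated replicate 2 or 3 (adjusted p up to 0.066), MTHFD2, PSAT1 and SLC38A1 without tunicamycin replicate 1, 2 or 3 or untreated replicate 2 (adjusted p up to 0.104), SHMT2 and CBS without tunicamycin replicate 1, 2 or 3 or untreated replicate 2 or 3 (adjusted p up to 0.082), and SLC38A2 without untreated replicate 2 (adjusted p up to 0.0501).

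The tRNA synthetases load amino acids onto tRNAs in the cytosol and in mitochondria. Of 20 cytosolic tRNA synthetase genes 8 were called higher and none lower (median 1.21), and 17 of 20 had non-overlapping groups with treated cells higher. GARS1, which serves the cytosol and mitochondria, had 1105, 951 and 1118 CPM after tunicamycin, against 118, 304 and 319 CPM in untreated cells (2.10 ± 0.36 (SE), adjusted p = 0.0189). WARS1 had 583, 406 and 475 CPM after tunicamycin, against 135, 130.5 and 147 CPM in untreated cells (1.83 ± 0.22 (SE), adjusted p = 0.0033), AARS1 had 757, 554 and 601 CPM after tunicamycin, against 136, 229.9 and 193 CPM in untreated cells (1.77 ± 0.26 (SE), adjusted p = 0.00831) and CARS1 had 182, 159.7 and 182 CPM after tunicamycin, against 37.5, 63.1 and 73.3 CPM in untreated cells (1.59 ± 0.28 (SE), adjusted p = 0.0207). SARS1 (1.52), YARS1 (1.30), IARS1 (1.28) and EPRS1 (1.17) rose as well, whereas VARS1 (0.02, adjusted p = 0.973) and QARS1 (-0.18, adjusted p = 0.627) had values near 0. The count of 8 was 2 without untreated replicate 2 or tunicamycin replicate 1 or 3. None of 17 mitochondrial synthetase genes was called (1 with the block, median 0.21), a difference between the lists that was not tested, and AARS2 had 36.3, 27.1 and 26.2 CPM after tunicamycin, against 34.6, 30.4 and 24.4 CPM in untreated cells. Not called in every fit without a library were GARS1 without tunicamycin replicate 1 or 3 or untreated replicate 2 (adjusted p up to 0.0743), and CARS1 without tunicamycin replicate 1, 2 or 3 or untreated replicate 2 (adjusted p up to 0.0842).

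ATF4 and its CEBP partners are known to bind a composite element, CARE (TGATGNAA), which was searched in the same promoters and was present in 1270 of 35116 (3.62%). Printed are the 250 bases before a start of ASNS that lies inside the gene's outer span, with the CARE in capitals. Short windows follow of risen genes for glutathione breakdown, a bZIP partner, tRNA charging and aspartate metabolism. Those of CEBPG and GARS1 also belong to inner starts.
ASNS, chr7:97872409-97872658, minus strand: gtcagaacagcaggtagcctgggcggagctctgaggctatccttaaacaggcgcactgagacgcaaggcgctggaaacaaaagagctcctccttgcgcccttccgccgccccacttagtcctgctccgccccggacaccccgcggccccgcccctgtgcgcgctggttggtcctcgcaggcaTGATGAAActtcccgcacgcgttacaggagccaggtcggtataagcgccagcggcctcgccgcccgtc
CHAC1, chr15:40953250-40953281, plus strand: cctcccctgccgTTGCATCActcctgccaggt
CEBPG, chr19:33374059-33374090, plus strand: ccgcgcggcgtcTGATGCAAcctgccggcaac
GARS1, chr7:30594833-30594864, plus strand: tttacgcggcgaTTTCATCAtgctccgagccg
AARS1, chr16:70289674-70289705, minus strand: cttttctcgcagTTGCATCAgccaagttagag
GOT1, chr10:99430803-99430834, minus strand: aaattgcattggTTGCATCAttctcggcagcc
The CARE of CHAC1, GARS1, AARS1 and GOT1 lies on the opposite strand. Of 508 tested coding genes with a CARE 22 (4.33%) were called higher, including also SLC38A1, BCAT1, CARS1, IARS1 and HERPUD1, and 1 lower, MANEAL (-1.29), a Golgi endomannosidase relative. The median log2 fold change of the 508 was -0.29, below the -0.09 of all 14555 genes. Groups did not overlap in 83 of the 508 with treated cells higher and in 60 with treated cells lower. Over all 41130 genes tested, which include noncoding genes, the same held for 10.5% and 10.6%. The shares among the 14555 coding genes are not given here, so the 83 and 60 cannot be set against a like base. Any of the 4 motifs was present at 41 of 265 higher genes with a promoter (15.5%) and at 698 of all 14555 (4.8%).

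Of 14 mitochondrial chaperone and protease genes 2 were called higher (4 with the block). HSPA9, the mitochondrial Hsp70, had 1320.3, 916 and 982 CPM after tunicamycin, against 240.3, 459 and 464 CPM in untreated cells (1.47 ± 0.31 (SE), adjusted p = 0.0487), and the protease gene LONP1 had 224, 212 and 226 CPM after tunicamycin, against 83.5, 114 and 106 CPM in untreated cells (1.13 ± 0.20 (SE), adjusted p = 0.0222). The 13 mitochondrially encoded mRNAs, 28 nuclear respiratory chain genes and 75 cytosolic ribosomal protein genes gave no call, with medians of 0.06, 0.15 and 0.08. The summed level of the mitochondrial mRNAs was 5260, 14437 and 14093 CPM after tunicamycin, against 7299, 11628 and 13613 CPM in untreated cells. Replicate 1 was the lowest library of each group, and the median of these mRNAs was 0.53 without tunicamycin replicate 1 and -0.17 without untreated replicate 1. The block without untreated replicate 1 called 6 of these 13 higher, and 4 of the 28 respiratory chain and 4 of the 75 ribosomal protein genes lower. Over all 29415 genes tested that fit called 13.4% higher and 11.8% lower. In autophagy WIPI1, which reads phosphoinositide on forming autophagosomes, had 127, 92.2 and 107 CPM after tunicamycin, against 24.1, 17.4 and 22.1 CPM in untreated cells (2.36 ± 0.23 (SE), adjusted p = 0.00135) and ATG13 rose by less (1.12 ± 0.20 (SE), adjusted p = 0.0234) among 33 genes (7 higher and 1 lower with the block). The cholesterol carrier gene STARD4 had 284, 196 and 219 CPM after tunicamycin, against 76.6, 70.3 and 77.4 CPM in untreated cells (1.64 ± 0.22 (SE), adjusted p = 0.00556) and was the only call among 26 cholesterol genes (3 higher with the block). CDC6, which licenses replication origins, had 594, 277 and 274 CPM after tunicamycin, against 31.8, 82.4 and 68 CPM in untreated cells (2.65 ± 0.45 (SE), adjusted p = 0.0192) and was alone among 40 cell cycle genes, but the block without untreated replicate 1 called 23 of these 40 lower. BTG1 (1.74 ± 0.22 (SE), adjusted p = 0.00408), an antiproliferative gene, PHLDA1 (1.08 ± 0.21 (SE), adjusted p = 0.0353), DDR2 (1.75 ± 0.26 (SE), adjusted p = 0.00847), a collagen receptor kinase, and LAMA1 (1.98 ± 0.31 (SE), adjusted p = 0.0133), a laminin chain, were each the only called member of their lists. With the block the 31 immediate early genes that include BTG1 had 5 higher and 1 lower, and the 20 MAPK feedback genes that include PHLDA1 had 4 higher and 2 lower. The receptor tyrosine kinases that include DDR2, of which the block fit tested 24, had 1 higher and 1 lower in it. Loss of a library ended the calls of HSPA9, LONP1, ATG13 and PHLDA1 without tunicamycin replicate 1, 2 or 3 or untreated replicate 2 or 3 (adjusted p up to 0.163), CDC6 without untreated replicate 3 (adjusted p up to 0.0505), and LAMA1 without tunicamycin replicate 2 or 3 or untreated replicate 3 (adjusted p up to 0.0593).

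Several of the highest coding genes were under 1 CPM in untreated cells. SPRR2D, a small proline-rich protein of the skin's cornified layer, had 4.10, 5.83 and 9.92 CPM after tunicamycin, against 0.139, 0.161 and 0.240 CPM in untreated cells (5.21 ± 0.46 (SE), adjusted p = 0.00106). CMKLR2, a chemerin receptor, had 7.06, 2.68 and 2.95 CPM after tunicamycin, against 0.263, 0.0404 and 0.05 CPM in untreated cells (5.07 ± 0.72 (SE), adjusted p = 0.00782). KLHDC7B had 2.01, 6.21 and 6.92 CPM after tunicamycin, against 0.308, 0.113 and 0.0600 CPM in untreated cells (4.91 ± 0.73 (SE), adjusted p = 0.00953). LURAP1L, less silent before treatment, had 72.2, 43.3 and 52.7 CPM after tunicamycin, against 0.363, 4.49 and 3.07 CPM in untreated cells (4.41 ± 0.75 (SE), adjusted p = 0.0189). KLHDC7B lost its call without untreated replicate 2 (adjusted p = 0.0541), and LURAP1L lost it without untreated replicate 3 or tunicamycin replicate 1 or 3 (adjusted p up to 0.0636). The CMKLR2 log2 fold change was 6.53 without untreated replicate 1 and 4.47 without tunicamycin replicate 1. The KLHDC7B log2 fold change was 5.85 without untreated replicate 1, and the LURAP1L log2 fold change was 5.05 without untreated replicate 2. Chosen after their values were seen, UFM1 (1.78, adjusted p = 0.0159), the small protein modifier that tags ER-bound ribosomes, rose. WFS1 (1.96, adjusted p = 0.0189), the ER protein altered in Wolfram syndrome, NUCB2 (2.25, adjusted p = 0.00371), a calcium-binding protein of the secretory route, SLC33A1 (1.90, adjusted p = 0.0016), which carries acetyl-CoA into the ER, SLC35B1 (1.55, adjusted p = 0.0203), the ER's ATP carrier, and PCK2 (2.08, adjusted p = 0.00303), the mitochondrial PEP carboxykinase, rose too. BHLHA15, the secretory cell factor MIST1, had 1.29, 1.90 and 2.03 CPM after tunicamycin, against 0.253, 0.0807 and 0.220 CPM in untreated cells (3.22, adjusted p = 0.00703).

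Counts were also higher in 45 lncRNA genes, 33 pseudogenes and 11 transcribed pseudogenes, and lower in 7 lncRNA genes and 1 pseudogene. A further 97 higher and 19 lower genes had no type in the reference. The number tested of each type is not given here, so these counts cannot be set against the 1.23% called higher over all genes. Several of the higher lncRNA genes and pseudogenes lie beside or copy a gene that rose. The strand setting of the counts is not given in the sources used here, so reads of such pairs cannot be told apart. HSPA5-DT had a log2 fold change of 3.05 and the pseudogene HSPA5P1 of 3.62, beside 3.67 for HSPA5. ASNSP1 was at 3.02 beside 2.45 for ASNS, LURAP1L-AS1 at 3.70 beside 4.41 for LURAP1L, and TXNDC11-AS1 at 1.66 beside 2.04 for TXNDC11. SLC7A11-AS1 was called at 2.50 although SLC7A11 itself was not. Of 4 called microRNA genes MIR616 (2.96) lies within DDIT3.

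Of the 113 genes called lower 5 belonged to the gene lists used here. DGAT2 (chromosome 11, 75768778 to 75801534), which completes triglyceride synthesis, had 3.26, 3.20 and 2.91 CPM after tunicamycin, against 18, 17.9 and 18.9 CPM in untreated cells. It had the tightest groups of the 12 lowest coding genes and kept its call whichever library was left out (-2.55 ± 0.22 (SE), adjusted p = 0.00106). Of 20 genes of fatty acid and triglyceride synthesis DGAT2 was the only one called (2 lower with the block), and 16 had negative fold changes (median -0.38). PPARGC1B, a coactivator of mitochondrial biogenesis, had 1.43, 4.07 and 2.10 CPM after tunicamycin, against 12, 14.9 and 9.04 CPM in untreated cells (-2.24 ± 0.42 (SE), adjusted p = 0.0291). S1PR5, a sphingosine-1-phosphate receptor, had 0.336, 0.803 and 0.406 CPM after tunicamycin, against 5.69, 3.76 and 2.07 CPM in untreated cells (-2.90 ± 0.49 (SE), adjusted p = 0.0189). TRIL, a Toll-like receptor partner known from glia, had 0.738, 1.45 and 0.812 CPM after tunicamycin, against 28, 5.33 and 3.50 CPM in untreated cells (-3.62 ± 0.72 (SE), adjusted p = 0.0368, and 0.0648 with the block), and untreated replicate 1 was several times the other untreated libraries. Without that library the log2 fold change of TRIL was -2.13 (adjusted p = 0.018). GJA5, the gap junction protein connexin 40, had 0.718, 1.62 and 1.41 CPM after tunicamycin, against 9.47, 3.95 and 4.23 CPM in untreated cells (-2.24 ± 0.46 (SE), adjusted p = 0.0431), and its call was lost with the block (0.0577). FAM78A had 0.514, 0.704 and 0.960 CPM after tunicamycin, against 6.01, 2.21 and 2.01 CPM in untreated cells (-2.24 ± 0.45 (SE), adjusted p = 0.0368, and 0.0516 with the block), and its log2 fold change was -1.53 without untreated replicate 1. CTTNBP2, which binds cortactin, had 0.185, 0.153 and 0.175 CPM after tunicamycin, against 2.11, 0.775 and 0.420 CPM in untreated cells (-2.69 ± 0.54 (SE), adjusted p = 0.0368), and without untreated replicate 1, its highest library, its log2 fold change was -1.79. DTX4, a Deltex ubiquitin ligase, had 0.152, 0.190 and 0.166 CPM after tunicamycin, against 1.11, 0.557 and 0.410 CPM in untreated cells (-2.04 ± 0.41 (SE), adjusted p = 0.0379), or -1.51 without that library. C4orf54 (-2.79 ± 0.55 (SE), adjusted p = 0.0344, and -2.19 without untreated replicate 3) and TMEM121 (-2.30 ± 0.42 (SE), adjusted p = 0.0251) complete the lowest with BMPER and GAS1. Also lost on leaving out a library were the calls of S1PR5 and PPARGC1B without tunicamycin replicate 1 or 3 or untreated replicate 2 (adjusted p up to 0.171), TRIL without tunicamycin replicate 1, 2 or 3 (adjusted p up to 0.196), C4orf54 without tunicamycin replicate 1, 2 or 3 or untreated replicate 2 or 3 (adjusted p up to 0.174), CTTNBP2, TMEM121, FAM78A and DTX4 without tunicamycin replicate 1, 2 or 3 or untreated replicate 2 (adjusted p up to 0.185), and GJA5 without tunicamycin replicate 1, 2 or 3 or untreated replicate 1, 2 or 3 (adjusted p up to 0.183).

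**Figure D4:**
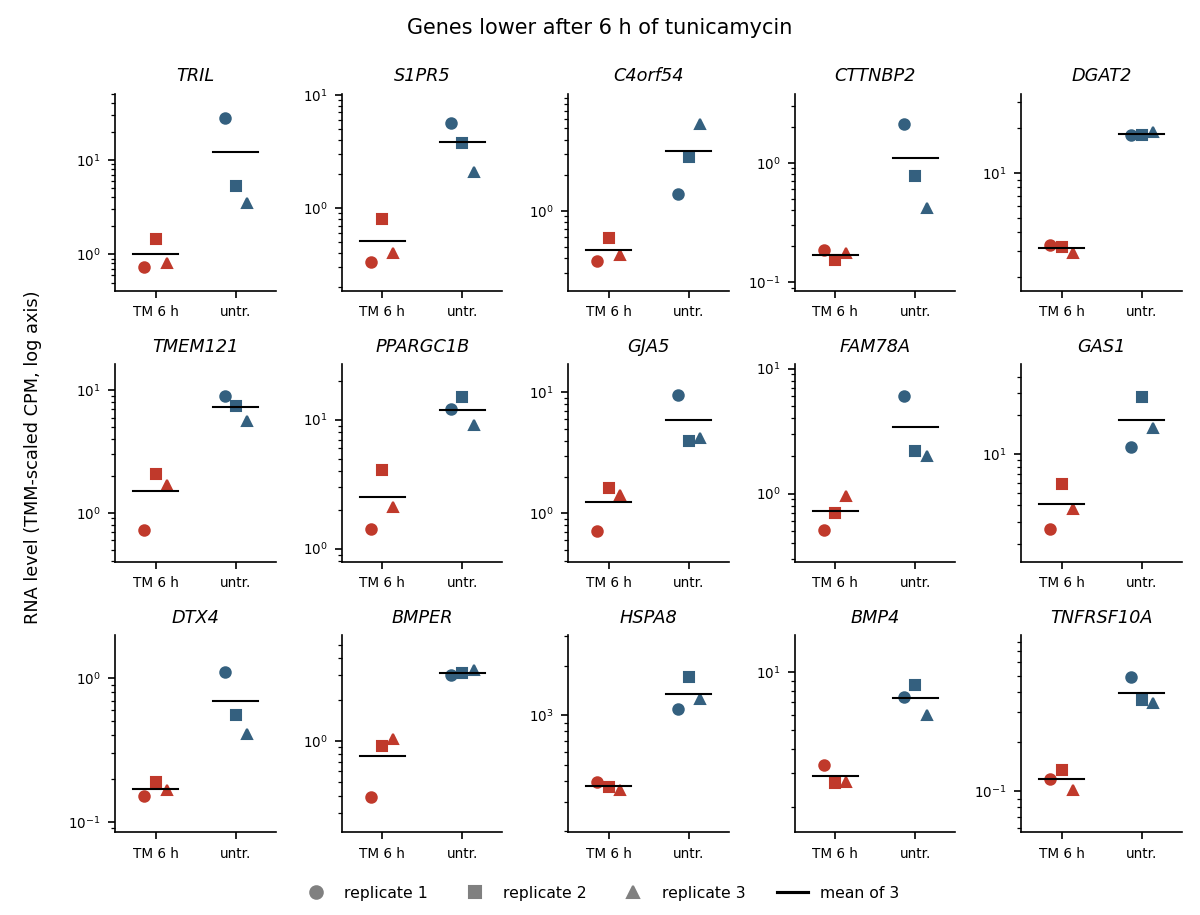
RNA levels in TMM-scaled CPM (log axis) of 15 genes called lower, in 3 tunicamycin 6 h libraries (red, left) and 3 untreated libraries (blue, right), with the replicate number by shape and the mean as a line. All 3 treated libraries lie below all 3 untreated ones in each gene, and untreated replicate 1 is the highest library for TRIL, S1PR5, CTTNBP2, TMEM121, GJA5, FAM78A, DTX4 and TNFRSF10A.

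GAS1 and BMP4 were the called members of the developmental signalling lists. GAS1, a co-receptor for Hedgehog ligands, had 2.64, 5.86 and 3.75 CPM after tunicamycin, against 11.3, 27.7 and 15.9 CPM in untreated cells (-2.17 ± 0.39 (SE), adjusted p = 0.0228). It was the only called gene of 12 in the Hedgehog list, of which 11 had negative fold changes (median -0.76). The Hedgehog receptor gene PTCH1, itself a standard target of the pathway, had 17, 24 and 14 CPM after tunicamycin, against 57.5, 54 and 31.6 CPM in untreated cells (-1.38, adjusted p = 0.0601, and 0.0312 with the block). BMP4, a bone morphogenetic protein, had 3.30, 2.67 and 2.71 CPM after tunicamycin, against 7.43, 8.59 and 5.95 CPM in untreated cells (-1.34 ± 0.24 (SE), adjusted p = 0.0232), and BMPER, a secreted BMP binder, had 0.389, 0.921 and 1.03 CPM after tunicamycin, against 3.00, 3.13 and 3.27 CPM in untreated cells (-2.01 ± 0.36 (SE), adjusted p = 0.0241). With the block SMAD6 (-1.35), BMPR1A (-0.77) and BMPR2 (-0.58) were called lower beside BMP4 among 32 genes of the TGF-beta and BMP list. No gene of 32 in the WNT list was called, 28 were negative (median -0.73), and with the block the receptor FZD5 (-1.10), SFRP1 (-1.21), ZNRF3 (-0.80) and LGR4 (-0.87) were called lower. None of 28 Notch genes was called, and the block called JAG1 (1.46), ADAM17 (1.06) and NUMB (0.78) higher and LFNG (-2.18) lower. The median of all genes was -0.27, and -0.01 without untreated replicate 1. Without that library the Hedgehog, WNT and Notch medians were -0.79, -0.54 and -0.32. Of the 28 Notch genes 7 were under 1 CPM in all 6 libraries. Leaving out a library ended the calls of GAS1 without tunicamycin replicate 1 or 3 or untreated replicate 2 (adjusted p up to 0.121), BMP4 without tunicamycin replicate 1, 2 or 3 or untreated replicate 2 (adjusted p up to 0.123), and BMPER without tunicamycin replicate 2 or 3 or untreated replicate 2 or 3 (adjusted p up to 0.0873).

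HSPA8, the constitutive cytosolic Hsp70, had 397, 368 and 353 CPM after tunicamycin, against 1094, 1697 and 1262 CPM in untreated cells (-1.86 ± 0.30 (SE), adjusted p = 0.0144; chromosome 11, 123057489 to 123062462). It was the only called gene among 27 cytosolic heat shock chaperones, whose median was 0.14. The inducible Hsp70 genes HSPA1A (-1.62, adjusted p = 0.0168) and HSPA1B (-0.94, adjusted p = 0.0247), near-identical copies of each other, were called lower with the block, and BAG3 (0.74, adjusted p = 0.0333), a co-chaperone, higher. TNFRSF10A, a receptor for the death ligand TRAIL, had 0.119, 0.135 and 0.102 CPM after tunicamycin, against 0.487, 0.355 and 0.340 CPM in untreated cells (-1.73 ± 0.37 (SE), adjusted p = 0.0489) and was the only called gene of 27 in the BCL2 and death receptor list (3 higher and 1 lower with the block). TNFRSF10B, the other TRAIL death receptor, had 479.7, 533 and 605 CPM after tunicamycin, against 129.9, 205 and 311 CPM in untreated cells (1.32, adjusted p = 0.105, or 1.37, adjusted p = 0.00731 with the block). PMAIP1, the BH3-only gene NOXA, had 262, 181 and 199 CPM after tunicamycin, against 15.1, 64.4 and 68.6 CPM in untreated cells (2.12, adjusted p = 0.0566, or 2.21, adjusted p = 0.0411 with the block). Calls that did not survive the loss of a library were HSPA8 without tunicamycin replicate 2 or 3 or untreated replicate 2 (adjusted p up to 0.0764), and TNFRSF10A without tunicamycin replicate 1, 2 or 3 or untreated replicate 2 or 3 (adjusted p up to 0.25).

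Ribosome-protected fragments from separate libraries of the same design gave another readout of the called genes. In Ribo-Seq 130 of 19411 genes tested (0.67%) were called higher and 33 (0.17%) lower. Of the 504 genes higher in RNA 390 were tested in footprints. Footprint changes were positive for 383 of them and 119 were called higher, with a median of 1.37 in footprints beside 1.76 in RNA. The median of all genes tested in footprints was -0.07. Of the 113 lower genes 86 were tested, 80 had negative footprint changes and 14 were called lower, with medians of -1.53 in footprints and -1.55 in RNA. No gene was called in opposite directions. Over all genes the 130 and 33 footprint calls were 78, 45 and 42 higher and 2, 3 and 2 lower without tunicamycin replicates 1, 2 and 3, and 150, 31 and 34 higher and 16, 3 and 3 lower without untreated replicates 1, 2 and 3. The 14 were DGAT2 (-3.33, adjusted p = 0.00114), GAS1 (-2.42, adjusted p = 0.00272), HSPA8 (-1.52, adjusted p = 0.0323), S1PR5 (-3.15, adjusted p = 0.0335), PPARGC1B (-2.80, adjusted p = 0.0422), CBX2, NOL4L, EPDR1, MEGF9, HYAL2, KANK2, PCYOX1L, MANEAL and TUBA1A. Among the higher genes HSPA5 stood at 3.37, adjusted p = 0.00143 in footprints, HERPUD1 at 4.25, adjusted p = 0.000159, DDIT3 at 4.52, adjusted p = 0.00238 and ASNS at 2.46, adjusted p = 0.00718. The Ribo-Seq libraries held 6920427, 8766112 and 10127909 counts after tunicamycin and 29183769, 8477747 and 9774377 in untreated cells.

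**Figure D5:**
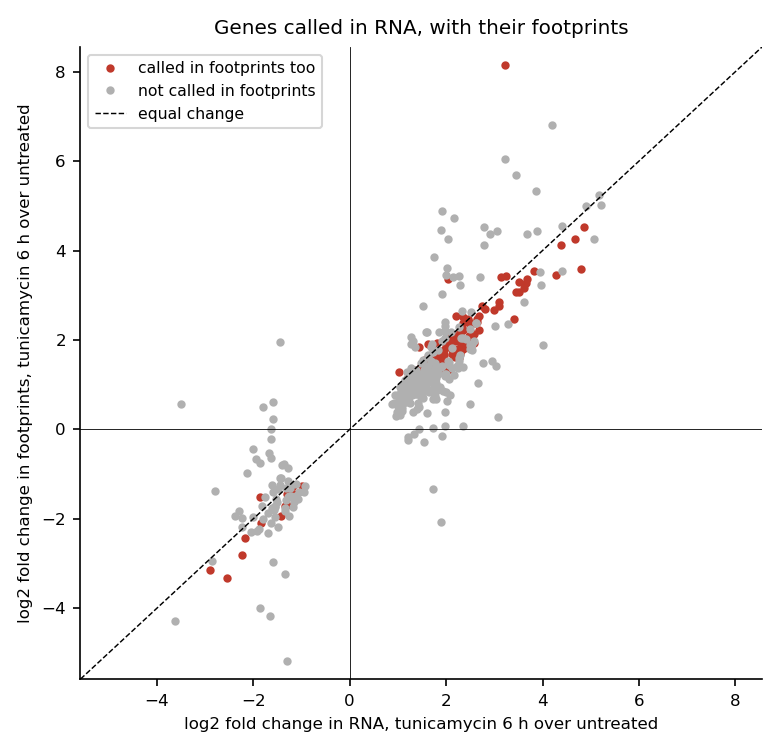
Log2 fold change in footprints against that in RNA (both tunicamycin 6 h over untreated) for the genes called in RNA that were also tested in Ribo-Seq. Each point is a gene, red where called in footprints too, and the dashed line marks equal change. Of the higher genes 383 of 390 and of the lower genes 80 of 86 keep their sign in footprints.

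Markers of cell identity were read beside these results. Of the glial markers VIM had 1322, 1581 and 1643 CPM after tunicamycin, against 451, 1518 and 1664 CPM in untreated cells, while GFAP, the astrocyte filament, had 3.38, 2.83 and 2.82 CPM after tunicamycin, against 1.59, 1.16 and 1.31 CPM in untreated cells (1.15 ± 0.25 (SE), adjusted p = 0.0493). AQP4, SLC1A2 and SOX9, which astrocytes also express, were below 1 CPM in all 6 libraries. Summed over 17 glial markers, levels were 2951, 3954 and 4057 CPM after tunicamycin and 2173, 4195 and 4595 CPM in untreated cells. Of these 17, 6 had positive log2 fold changes, and the list's median was -1.13, beside -0.27 for all genes. Without untreated replicate 1, which left 15 tested, it was -0.41, beside -0.01. Blood markers summed to 2.52, 3.58 and 3.73 CPM after tunicamycin and 6.02, 3.53 and 3.04 CPM in untreated cells, with 10 of 12 under 1 CPM in all 6 libraries. Epithelial and keratinocyte markers summed to 150.4, 96.5 and 109.8 CPM after tunicamycin and 59.8, 79.4 and 78.4 CPM in untreated cells, with 8 of 13 under 1 CPM in all 6 libraries and EPCAM at 0.679, 0 and 0.00923 CPM after tunicamycin and 0.740, 0.00807 and 0 CPM in untreated cells. Of 12 epithelial markers tested SPRR2D was the only one called and of 17 glial markers GFAP. It lost its call in 5 of the 6 fits that left out a library, all but the fit without untreated replicate 1 (adjusted p up to 0.185). None of 12 neuron, 12 blood or 12 endothelial and fibroblast markers was called. With a filter of at least 10 counts in 3 of the 6 libraries, 9, 5 and 10 of them were tested, and 1 neuron marker was higher. For the rest, near 0 CPM, a lack of calls says little. With the block the neuron list had SYT1 (1.56) higher and GAD1 (-0.84) lower, the blood list 1 lower and the glial list 2 higher, and without untreated replicate 1 or 3 the neuron list had 1 higher. The part of these levels in the results was not tested. In bulk RNA, fewer cells of a type and less RNA per cell cannot be told apart.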

How the data were processed

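RNA-Seq and Ribo-Seq of LN308 cells were deposited by the authors as raw read counts per Ensembl gene, 1 file per library. The submitters' processing notes name STAR 2.5.4b, HTSeq, DESeq2 and GRCh38, and the strand setting is not given in the sources used here. All 11 RNA-Seq libraries, which include 1 library at each thapsigargin time, were fitted together in edgeR 4.0.16 (R 4.3.3). The fit used TMM scaling and robust quasi-likelihood tests. Its filter of at least 10 counts (filterByExpr) goes by the smallest group, here 1 library, so a gene could be tested on 1 library alone. P-values were adjusted by Benjamini-Hochberg over all genes tested and called under 0.05. Ribo-Seq libraries were fitted the same way. The steps were tested on simulated data. Library totals were 101371822 to 166586145 counts in the 6 RNA-Seq libraries compared.

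Same-numbered tunicamycin and untreated RNA-Seq libraries deviated together (correlations of 0.206, 0.109 and 0.226 across genes, against -0.224 to 0.105 for unmatched numbers, with the second pair close to its highest unmatched value). The replicate number was used as a block in a further fit of the 9 untreated and tunicamycin libraries. Other alternatives were DESeq2 1.42.0, other scalings and filters, the 6 libraries alone, and leaving out each library. Genes are named as the 12 highest and 12 lowest called coding genes (mean count of 50 or more), up to 4 called members with the smallest p per list and direction, all called members of short lists (5 or fewer), and the first member of each list, of which 1 is not reported here; other genes named add members of the lists or were chosen after their values were seen. Members and lists were chosen with earlier results of these data known.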

Additional observations from a re-analysis of the deposited data

How the results depend on the processing

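The count of 504 genes higher in RNA was 298 with library size alone, 1391 with DESeq2, 1485 with the replicate block and 3949 with the block without untreated replicate 1. The 113 lower genes numbered 1094 with DESeq2, 215 with at least 10 counts in 3 of the 6 libraries, 47 with the 6 libraries alone, 821 with the block and 3468 with the block without untreated replicate 1. Leaving out 1 library gave 176 (without untreated replicate 2) to 736 (without untreated replicate 1) higher and 5 (without tunicamycin replicate 3) to 227 (without untreated replicate 1) lower genes. In footprints the 130 higher genes numbered 379 with DESeq2, 333 with no filter, 259 with the block and 31 to 150 without 1 library. The 33 lower genes numbered 307 with DESeq2, 412 with no filter, 127 with the block and 2 to 16 without 1 library. The cause of these shifts was not tested. Among 134 named genes the block ended the calls of TRIL, GJA5 and FAM78A and added 10.

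Some genes that were not called had log2 fold changes of the other sign under an alternative. AARS2 (0.00) had -0.34 with library size alone, -0.03 with RLE and with DESeq2, -0.12 with the stricter filter, -0.07 with the 6 libraries alone and -0.05 with the block. NOP56 (0.00) had -0.26, -0.02, -0.02, -0.09, -0.04 and -0.08 under the same settings. With the block without untreated replicate 1, NOP56 had -0.41, RPS6 (0.18) -0.02, MT-ND1 (-0.01) 0.22, FOS (-0.74) 1.32, PTPRC (-0.14) 0.44, EPCAM (-0.14) 0.64, CCN1 (-0.08) 0.25 and SREBF1 (-0.47) 0.02. RPS6 had -0.14 with library size alone, MT-ND1 0.05 with no filter and CCN1 0.78 with the block. Leaving out 1 library gave -0.15 to 0.13 for AARS2, -0.19 to 0.13 for NOP56, -0.07 to 0.29 for RPS6, -0.40 to 0.51 for MT-ND1, -1.74 to 0.86 for FOS, -0.40 to 0.56 for PTPRC, -0.13 to 0.77 for EGFR, -0.64 to 0.96 for CCN1, -0.72 to 0.12 for CCND1 and -0.43 to 0.11 for BLOC1S1. For EPCAM, at or near 0 CPM outside replicate 1 of each group, it gave fitted values of -5.56 to 5.44, which are no bounds on a change.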
